A study of Mus musculus with 107 samples.

Results

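The nuclear genes that encode subunits of the respiratory chain and of ATP synthase were followed through single mouse eggs. The 85 genes were taken from the 21564 gene symbols of the count table by their symbols alone (Nduf with a, b, c, s or v and a number, Cox4 to Cox8, Uqcr, Sdha to Sdhd, and Atp5), leaving out symbols marked as pseudogenes. They comprised 37 genes of complex I, 4 of complex II, 8 of complex III, 18 of complex IV and 18 of complex V. The symbols also take in Atp5if1, an inhibitor of ATP synthase, and Cox7a2l, a factor of respiratory supercomplexes, while Ndufa4 stands with complex I by symbol although its protein is now placed in complex IV. All eggs came from C57BL/6J females aged 2 to 3 months that had received 5 IU of pregnant mare serum gonadotropin 48 h earlier. Oocytes were held before maturation in 2.5 µM milrinone, an inhibitor of meiotic resumption, and eggs were collected 38 to 40 h after germinal vesicle breakdown. Of 107 eggs, 29 were wildtype, 61 were mos -/- (22 named M1, 18 M2 and 21 M3, names that the labels do not define) and 17 were wildtype eggs exposed to 10 mM strontium chloride for 2 h, starting 15 to 16 h after germinal vesicle breakdown. Mos encodes a kinase that keeps the mature egg arrested, and strontium releases that arrest without sperm.

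Complex I (NADH dehydrogenase), complex II (succinate dehydrogenase), complex III and complex IV (cytochrome c oxidase) pass electrons from NADH and succinate to oxygen, and complex V (ATP synthase) makes ATP from the proton gradient that complexes I, III and IV build. Most subunits are made in the cytosol from nuclear genes and joined in the mitochondrion with a few subunits of its own genome, and complex II is wholly nuclear. Arrested eggs carry very many mitochondria and make few or no new transcripts. They live on stored transcripts that are activated or degraded by changes of their poly(A) tails. Whether mutant or activated eggs had begun to transcribe was not tested.

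A sample is a single egg, and the labels name no animals. Counts of all eggs of a group in a batch were added up, which gave 9 sums, and p-values measure only the spread between sums, which may be technical. Levels are CPM, the counts of a gene scaled to a common library total, with TMM, a normalisation that assumes most genes unchanged. Summed counts ran from 5436993 (wildtype, batch 2) to 36209306 (wildtype, batch 1), and median totals per egg in batch 2 were 207420 for wildtype and between 503732 and 796582 for the other groups. Batch 1 libraries share 1 name prefix that gives no plate. By the library names of batch 2, wildtype, activated and mutant eggs lay on separate plates, so plate and group cannot be told apart in that batch. Mos itself was at 7.32 and 36.8 CPM in the wildtype sums of batches 1 and 2, and between 0.892 and 12.5 CPM in the 6 mutant sums. These ranges overlap only across batches. In batch 1 M1, M2 and M3 were at 5.47, 0.892 and 1.51 CPM, and in batch 2 at 12.5, 7.60 and 3.40 CPM. Each lay below the wildtype sum of its batch. The activated sum was at 4.91 CPM. All 15 oocyte markers in the table were above 1 CPM in every sum. Of 16 follicle cell markers, between 4 and 8 were above 1 CPM in each sum. Ptx3 was at 0 in every sum, and Foxl2, Fshr and Amh were at 0 in most. Summed follicle cell markers (16 genes, mostly Serpine2) ran from 109.4 to 315.1 CPM, 10 blood and immune markers from 3.22 to 29.3 CPM, and 12 stroma and vessel markers from 44.6 to 165.6 CPM. A single wildtype egg of batch 2, egg 45, had 0.609% of its counts in the 85 genes, the highest among eggs of at least 10000 counts. It supplied 8.25% of that group's counts but over 50% of the group's counts for 21 of the 77 members that had any.

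Promoter sequences are shown first for members that differed between mutant and wildtype eggs, since respiratory genes are known for binding sites of NRF1, of ETS factors such as GABP, and of YY1. RefSeq (GRCm38.p6) gave 74 promoters for 69 of the 85 genes, each from 250 bases before to 50 bases after the transcription start. Capitals mark GCATGCGC (NRF1), CCGGAAG (the GABP or ETS core) or either one's reverse complement, and the last 10 bases of each line lie after the start. The first 5 genes were higher in mutant eggs and are shown because their windows hold such letters. Ndufa1, Ndufa5 and Ndufa7 were also higher, but their promoters hold no NRF1, ETS or YY1 letters and are not shown. Cox5b and Sdha were lower and are shown because no exact match to the searched letters occurs in their windows. The lines were thus picked by their letters and do not compare higher with lower members.
Uqcr11, minus strand: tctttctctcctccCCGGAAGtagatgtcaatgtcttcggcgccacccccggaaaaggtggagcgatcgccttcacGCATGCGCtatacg
Cox6a1, minus strand: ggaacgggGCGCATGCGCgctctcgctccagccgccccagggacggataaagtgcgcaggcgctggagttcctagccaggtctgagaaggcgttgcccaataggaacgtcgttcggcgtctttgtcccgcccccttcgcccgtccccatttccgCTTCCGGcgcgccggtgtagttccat
Cox6b1, minus strand: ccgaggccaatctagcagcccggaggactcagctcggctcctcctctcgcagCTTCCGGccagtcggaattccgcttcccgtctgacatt
Ndufa11, plus strand: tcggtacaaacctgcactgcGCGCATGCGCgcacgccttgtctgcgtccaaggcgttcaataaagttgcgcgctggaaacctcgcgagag
Sdhd, minus strand: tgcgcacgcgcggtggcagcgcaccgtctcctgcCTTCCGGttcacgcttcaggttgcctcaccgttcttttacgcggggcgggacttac
Cox5b, plus strand: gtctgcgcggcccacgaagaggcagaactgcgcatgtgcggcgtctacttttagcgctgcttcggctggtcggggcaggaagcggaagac
Sdha, minus strand: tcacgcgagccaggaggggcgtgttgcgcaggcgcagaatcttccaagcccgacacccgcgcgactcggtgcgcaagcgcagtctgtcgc
These windows are chr10:80406812-80406901 (Uqcr11), chr5:115348949-115349128 (Cox6a1), chr7:30626105-30626194 (Cox6b1), chr17:56717682-56717771 (Ndufa11), chr9:50603840-50603929 (Sdhd), chr1:36691407-36691496 (Cox5b) and chr13:74350231-74350320 (Sdha).

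The NRF1 letters begin 4 bases before the start of Uqcr11, and in Ndufa11 and Cox6a1 they are found on both strands in overlapping positions, from 60 and from 162 bases before the start. ETS letters begin 66, 16, 28 and 46 bases before the starts of Uqcr11, Cox6a1, Cox6b1 and Sdhd. Over the 74 member promoters, searched on both strands, 13.5% held the NRF1 letters, 21.6% the ETS letters and 9.46% AAGATGGCG (YY1). Among all 32851 promoters listed the same shares were 2.71%, 8.86% and 1.40%. Among the 21262 promoters of protein-coding genes they were 3.51%, 11.6% and 1.83%. At least 1 of the 3 was held by 36.5% of member promoters, 12.1% of all and 15.7% of those of protein-coding genes. TATAAA, the TATA box, was in 10.8% of member promoters and 13.6% of all. Of the 9 members higher in mutant eggs, 8 had a promoter entry and 5 of these held NRF1, ETS or YY1 letters, which 27 of the 69 members with an entry also held. Of the 5 lower members, 4 had an entry and 0 held them. These are matches of letters and not measured binding. Only exact matches were counted, so a promoter without them may still hold sites with slightly different letters.

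In wildtype eggs the subunits of 1 complex differed in level by orders of magnitude. Of the 85 genes, 57 averaged under 10 CPM over the 2 wildtype sums and 6 reached 100 CPM. Atp5f1b, the catalytic beta subunit of ATP synthase, averaged 924 CPM, Sdha, the flavoprotein of succinate dehydrogenase, 616 CPM, Atp5f1a, the alpha subunit of ATP synthase, 434 CPM, and Ndufa10, an accessory subunit of complex I, 247 CPM. Complex V held 44.9% of the summed level of all members, complex II 19.4%, complex I 17.4%, complex IV 15.2% and complex III the least.

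Per kilobase of merged exons, which allows genes to be compared, the most abundant member of each complex in wildtype eggs was Ndufa10 in complex I (74.2 CPM per kb), Sdha in complex II (149), the core protein gene Uqcrc2 in complex III (24.4), Cox8a in complex IV (272) and Atp5f1b in complex V (218). The medians were 5.14, 8.26, 4.88, 7.34 and 1.97 CPM per kb for complexes I to V. Per kb, Cox8a, Atp5f1b and Sdha took the first 3 places among all 85 genes, and Atp5f1a and Ndufa10 followed. These places depend on the length used. Per kb of the principal transcript, the main annotated form of a gene, Atp5f1b (482) came before Cox8a (306) and Sdha (212). Cox5a (186) then stood above Atp5f1a (176) and Ndufa10 (122), and the first member of each complex stayed the same. Reads can be lost or split where another annotated transcript is at least 95% identical over 100 bases, which held for 25 members. The median of these 25 was 2.35 CPM per kb against 4.99 for the other 60.

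Tissue isoforms of complex IV showed which forms the egg libraries held. Cox8a averaged 272 CPM per kb, whereas Cox8b, the heart and muscle form, and the testis form Cox8c had 0 and 10 counts in all eggs together. Cox6a1, the widely expressed form, stood at 51.5 CPM per kb and the muscle form Cox6a2 at 0.933. Cox7a2 was at 45.9 and the supercomplex factor Cox7a2l at 6.85 CPM per kb, while the muscle form Cox7a1 had 2 counts in all eggs. Cox4i1 was at 10.4 and the hypoxia-linked Cox4i2 at 0.0984 CPM per kb. The pair Cox6b1 and Cox6b2, the latter known from testis, was closer, at 9.06 and 7.82 CPM per kb. Their order turned between batches (8.76 and 4.45 in batch 1, 9.36 and 11.2 in batch 2). Per kb of the principal transcript their means were 10.4 and 14.8, in the other order. The 3 genes for the identical c subunit of ATP synthase were all low, with Atp5mc2 at 1.55, Atp5mc3 at 0.607 and Atp5mc1 at 0.336 CPM per kb. Before division by length they averaged 2.59, 1.32 and 1.65 CPM, so Atp5mc1 was last only per kb. Atp5mc2 has 2 near-identical pseudogene copies. Atp5mc1 shares near-identical stretches with 12 other genes, 1 of them a pseudogene.

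As a share of all counts, the 85 genes together overlapped between nearly all groups. Among eggs of at least 10000 counts, the median share was 0.321% in wildtype eggs of batch 1 (n = 5, from 0.274% to 0.344%), 0.364% in M1 (n = 4, from 0.164% to 0.456%), 0.285% in M2 (n = 2, 0.276% and 0.294%) and 0.215% in M3 eggs (n = 3, from 0.209% to 0.255%). In batch 2 it was 0.272% in wildtype (n = 24, from 0.117% to 0.609%), 0.366% in M1 (n = 16, from 0.2499% to 0.530%), 0.312% in M2 (n = 16, from 0.175% to 0.458%), 0.287% in M3 (n = 17, from 0.200% to 0.342%) and 0.317% in activated eggs (n = 17, from 0.184% to 0.366%). The exception was the 3 M3 eggs of batch 1, which all lay below the wildtype and M2 eggs of that batch. M1 eggs had the highest median of both batches. The number of members with at least 1 count had a median of 30 of 85 in wildtype eggs of batch 2 and between 55.5 and 62 in the other groups of that batch, which were also sequenced more deeply.

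**Figure D1:**
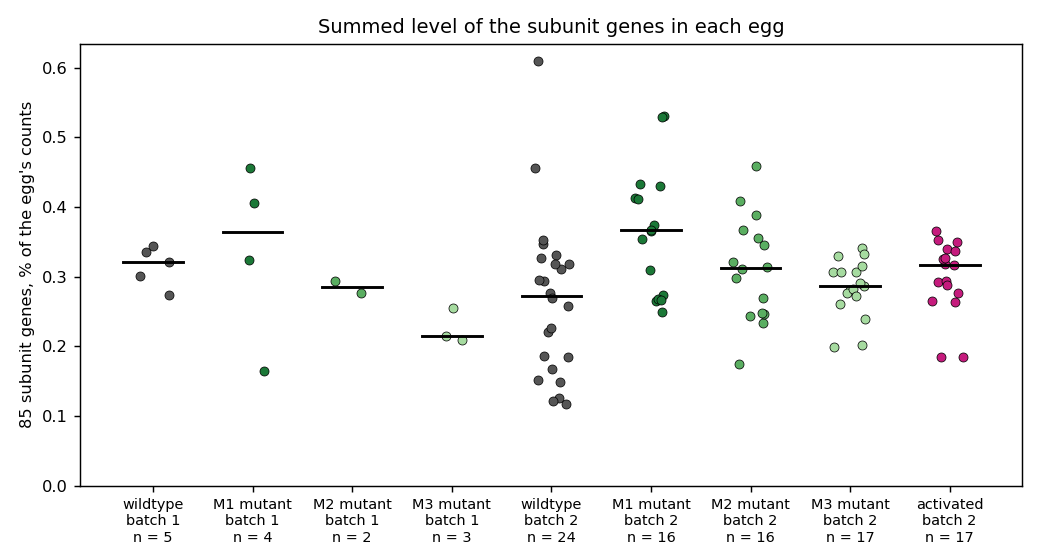
Counts of the 85 subunit genes as a percentage of the counts of each egg, by group and batch. Each point is 1 egg with at least 10000 counts and each bar is the median of its group. Medians run from 0.215% (M3, batch 1) to 0.366% (M1, batch 2), and the highest point, at 0.609%, is wildtype egg 45.

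Between mutant and wildtype eggs, 9 of the 81 members tested were higher in mutant eggs and 5 were lower. The higher ones were mostly small subunits with short transcripts (Ndufa1, Ndufa2, Ndufa5, Ndufa7, Ndufa11, Sdhd, Uqcr11, Cox6a1 and Cox6b1), with a median level of 17.8 CPM over the 9 sums and a median transcript length of 571 bases. The lower ones included 3 of the 4 most abundant members (Ndufa10, Sdha and Atp5f1a) with Cox5a and Cox5b, with a median level of 163 CPM and a median length of 2020 bases. Over all 81 tested members the median level was 7.74 CPM. The median length was 764 bases over all members with a known principal transcript length, including those not tested. Each fold sets the average of M1, M2 and M3 against wildtype, fitted with a batch term in edgeR, and a gene was called at a Benjamini-Hochberg adjusted p under 0.05 over 13832 genes. Among all genes tested 5.36% were called higher and 4.03% lower, against 11.1% and 6.17% of the members. The median log2 fold was 0.32 for the members and 0.06 for all genes, and for the members it was 0.69 without wildtype egg 45 and 0.20 without M1 egg 6. Since a level is a share of the total, fewer transcripts of a gene and more of all others cannot be told apart. Poly(A) tails were not measured, so the part of tail changes in these levels was not tested.

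Complex I had 5 of its 37 members higher and 1 lower, all among the accessory subunits named Ndufa. Ndufa7 (chr17:33824572-33838317, plus strand), a subunit of the matrix arm, was at 0.12 and 0 CPM in the wildtype sums of batches 1 and 2. In batch 1 its levels were 8.64 CPM in M1, 4.52 in M2 and 1.26 in M3, and the same groups were at 10.6, 8.13 and 4.74 in batch 2, with 1.84 in activated eggs. Every mutant sum thus lay above both wildtype sums, and the wildtype values rest on 4 counts in batch 1 and 0 in batch 2. The ratio of unscaled CPM was 47.8 in batch 1, with a 95% counting interval from 18.5 to 177, and mutant eggs were at least 14.7-fold higher in batch 2, taking 3 counts over the group as the floor, where the lower limit of the 95% counting interval was 11.9-fold. The fitted log2 fold of 5.36 (adjusted p = 0.000715) depends on how counts of 0 are handled and is no bound.

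Ndufa5 (chr6:24518666-24528013, minus strand), also of the matrix arm, gave a similar picture. It was at 0.12 and 1.71 CPM in wildtype, at 16.9, 8.60 and 4.83 CPM in the mutant groups of batch 1 in the same order, at 9.598, 7.60 and 7.50 in batch 2 and at 2.46 in activated eggs. All 4 counts of batch 1 came from 1 wildtype egg, and all 8 counts of batch 2 came from egg 45. The unscaled ratio was 99.99 in batch 1 (from 38.9 to 368) and 5.95 in batch 2 (from 2.98 to 13.9), with a fitted log2 fold of 3.97 (SE 0.84, adjusted p = 0.00805).

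Ndufa2, a further small subunit of complex I, was at 1.27 and 6.84 CPM in wildtype, at 30.9, 17.8 and 9.81 in the batch 1 sums of M1, M2 and M3, at 24.3, 19.3 and 13.7 in batch 2 and at 5.53 in activated eggs. Egg 45 held 30 of the 32 wildtype counts of batch 2. The log2 fold was 2.50 (SE 0.52, adjusted p = 0.00676). Ndufa1 (chrX:37187588-37191163, minus strand), an X-linked membrane-arm subunit, was at 6.73 and 3.21 CPM in wildtype, at 35.2, 9.11 and 14.5 in mutant eggs of batch 1, at 27.7, 24.5 and 26.5 in batch 2 and at 12.7 in activated eggs. Its log2 fold was 1.98 (SE 0.46, adjusted p = 0.0118).

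Ndufa11 (chr17:56717767-56722141, plus strand), a membrane-arm subunit, was at 10.7 and 6.41 CPM in wildtype, at 41.2, 19.2 and 12.98 in mutant eggs of batch 1, at 29.9, 36.6 and 24.9 in batch 2 and at 14.1 in activated eggs. The log2 fold was 1.55 (SE 0.39, adjusted p = 0.0179), with all 6 mutant sums above both wildtype sums. Ndufa10 (chr1:92439010-92473860, minus strand) went the other way, from 287 and 207 CPM in wildtype to 151, 159 and 144.1 in batch 1 and 191, 130 and 117.05 in batch 2. It was at 78.1 CPM in activated eggs, the lowest of the 9 sums, and its log2 fold between mutant and wildtype was -0.73 (SE 0.19, adjusted p = 0.0228). Among single eggs of batch 2 the groups overlap, with Ndufa10 from 61.8 to 364 CPM in wildtype (median 146) and from 29.04 to 132.7 CPM in activated eggs (median 85.7). The 31 members of complex I that were not called included core subunits of the electron path such as Ndufs3 (log2 fold -0.95), Ndufs1 (-0.17) and Ndufv1 (0.66).

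Complex II split between its parts. Sdhd (chr9:50596357-50603812, minus strand), which anchors the complex in the inner membrane, was at 2.36 and 4.49 CPM in wildtype, at 21.02, 7.26 and 14.6 in mutant eggs of batch 1, at 26.6, 21.01 and 15.0 in batch 2 and at 14.5 in activated eggs. The log2 fold was 2.37 (SE 0.43, adjusted p = 0.00196), with no overlap between mutant and wildtype sums. Sdha (chr13:74322254-74350280, minus strand) was at 732 and 499.8 CPM in wildtype, at 377, 615 and 480 in batch 1, at 304, 321 and 372 in batch 2 and at 315 in activated eggs. Its log2 fold was -0.59 (SE 0.18, adjusted p = 0.0411), and mutant M2 eggs of batch 1 lay above the wildtype sum of batch 2. Sdhb, the iron-sulfur subunit, and Sdhc, the second anchor, had log2 folds of -0.55 and -0.22 and were not called.

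In complex III only Uqcr11 (chr10:80402997-80406830, minus strand), the smallest subunit, was called. It was at 5.58 and 4.49 CPM in wildtype, at 37.8, 21.9 and 13.99 in mutant eggs of batch 1, at 25.045, 21.3 and 19.96 in batch 2 and at 15.6 in activated eggs. The log2 fold was 2.15 (SE 0.37, adjusted p = 0.0013), with every mutant sum above both wildtype sums. Uqcr11 has 2 near-identical pseudogene copies, between which the counting could split its reads. The other 7 members had log2 folds from -1.35 (Uqcrc1, a core protein) to 1.29 (Uqcr10).

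Complex IV had 2 members higher and 2 lower of 14 tested, and Cox7a1, Cox7b2, Cox8b and Cox8c were too low to test. Cox6b1 (chr7:30616861-30626151, minus strand), which faces the intermembrane space, was at 6.21 and 6.63 CPM in wildtype, at 36.2, 20.5 and 9.96 in batch 1, at 38.8, 27.5 and 34.5 in batch 2 and at 24.6 in activated eggs. Its log2 fold was 1.99 (SE 0.38, adjusted p = 0.00332). Cox6a1 (chr5:115345642-115348981, minus strand) was at 28.4 and 43.8 CPM in wildtype, at 113, 67.4 and 59.03 in batch 1, at 70.4, 72.3 and 58.95 in batch 2 and at 32.4 in activated eggs. The log2 fold was 1.02 (SE 0.27, adjusted p = 0.0217), and the activated value lay between the wildtype sums.

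Cox5b (chr1:36691449-36693681, plus strand), a zinc-binding subunit on the matrix side, was at 22.5 and 119 CPM in wildtype, at 14.2, 5.92 and 6.34 in mutant eggs of batch 1, at 43.9, 39.6 and 31.8 in batch 2 and at 39.6 in activated eggs. Levels differed more between batches than between genotypes, and within each batch all 3 mutant sums lay below wildtype, giving a log2 fold of -1.54 (SE 0.25, adjusted p = 0.000713). Cox5b has 1 near-identical copy. Cox5a (chr9:57521274-57532426, plus strand), its neighbour in the complex, was at 66.5 and 173 CPM in wildtype, at 56.9, 49.2 and 49.9 in batch 1, at 66.7, 62.1 and 55.1 in batch 2 and at 77.2 in activated eggs. The log2 fold was -0.98 (SE 0.24, adjusted p = 0.0146), and in batch 1 the wildtype sum was close to the mutant ones. In single wildtype eggs of batch 1 Cox5a ranged from 41.8 to 116.9 CPM, overlapping all mutant groups of that batch.

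Of the 18 members of complex V, Atp5f1a alone was called. It was at 519 and 349 CPM in wildtype, at 195, 206 and 162 in mutant eggs of batch 1, at 282, 206 and 181 in batch 2 and at 231 in activated eggs, with a log2 fold of -1.10 (SE 0.20, adjusted p = 0.00176). Its catalytic partner Atp5f1b was at 1055 and 793 CPM in wildtype and between 734 and 947 CPM in the 6 mutant sums. The log2 fold of Atp5f1b was -0.17 (SE 0.17, adjusted p = 0.647), so the difference seen for the alpha subunit was not detected for the beta subunit. The difference between these 2 folds was not tested.

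**Figure D2:**
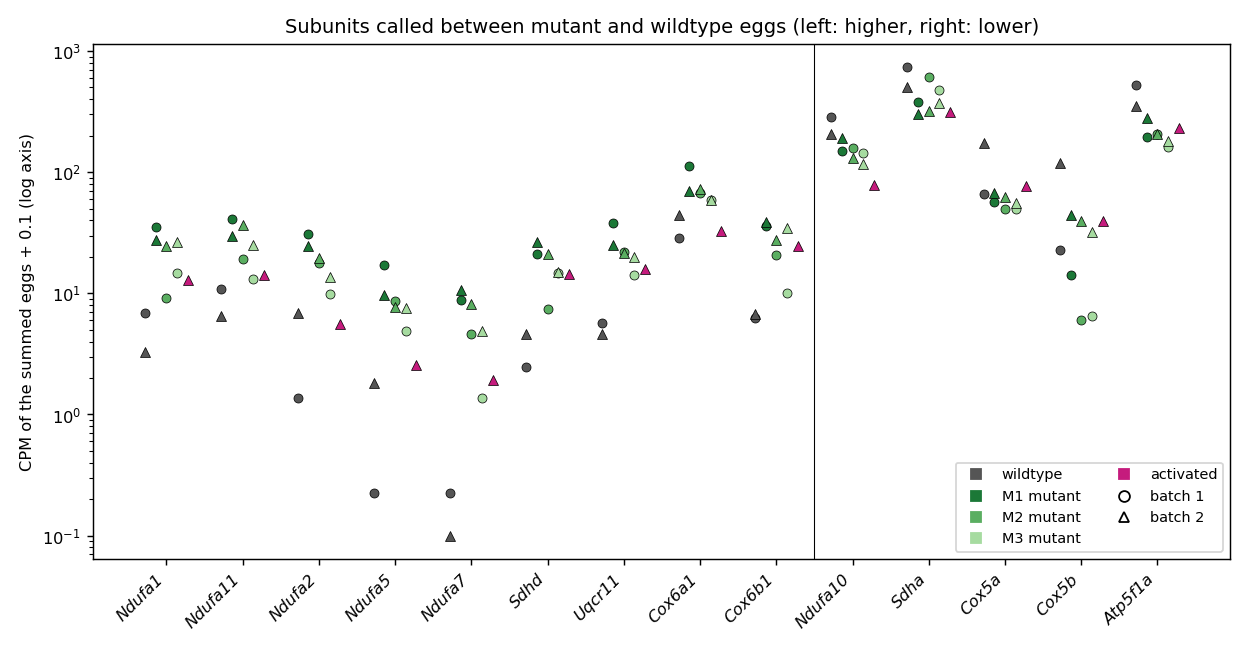
Level of the 14 members called between mutant and wildtype eggs, in CPM plus 0.1 on a log axis, in each of the 9 sums of eggs. Colours give the group and symbols the batch, and 9 higher members stand left of the line and 5 lower ones right of it. Within each batch all 3 mutant sums lie on the same side of the wildtype sum for each of the 14. They were called from these same sums, so this is no separate support. In both batches all mutant sums lay above wildtype for 15.6% of all genes tested and below for 13.5%. Among the 81 members tested it was 15 and 9.

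The calls rest on few wildtype sums and partly on 1 egg. Without egg 45, 16 members were called higher and 5 lower, against 7.29% and 4.95% of all genes. Those added included Ndufa9, Ndufb9, Uqcrq, Cox4i1, Cox7a2l and Atp5mf. Cox4i1, the main form of a complex IV subunit, went from a log2 fold of 0.14 (adjusted p = 0.959) to 1.35 (SE 0.43, adjusted p = 0.0439). The summed oocyte markers were also highest in egg 45, at 42741 CPM against 6920 to 40845 CPM (median 10754) in the other 23 wildtype eggs of batch 2, while its follicle cell markers (317 CPM) lay within the range of the others. Their part in the result was not tested. With either wildtype sum left out, 5 members were called in the same direction both times, namely Ndufa7, Sdhd, Uqcr11 and Cox6b1 (higher) and Cox5b (lower). Without the batch term 1 member was called higher and 0 lower, and Sdha was no longer called without M1 egg 6 (log2 fold -0.54, adjusted p = 0.0596).

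Between activated and wildtype eggs, 6 members were called. Ndufa7, Sdhd and Uqcr11 were higher and Ndufa10, Cox5b and Atp5f1d were lower, 3 of 81 members (3.70%) each way, where 5.66% of all genes were called higher and 7.33% lower. Log2 folds were 3.40 for Ndufa7 (SE 1.06, adjusted p = 0.0419), 1.82 for Sdhd (SE 0.56, adjusted p = 0.0384) and 1.67 for Uqcr11 (SE 0.50, adjusted p = 0.0324). On unscaled counts Ndufa7 was at least 3.62-fold higher within batch 2, where 27 counts in activated eggs stood against 0 in wildtype. That figure takes 3 counts over the group as the floor, and the lower limit of the 95% counting interval was 2.75-fold. Sdhd was counted in all 17 activated eggs (from 1.09 to 38.9 CPM, median 15.1) but in 7 of 24 wildtype eggs of batch 2, whose median total of 207420 counts was below the 796582 of activated eggs.

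Ndufa10 fell by 1.56 on the log2 scale (SE 0.34, adjusted p = 0.00455) and Cox5b fell by 1.52 (SE 0.43, adjusted p = 0.0253). Atp5f1d, the delta subunit of the ATP synthase stalk, was at 4.22 and 15.0 CPM in wildtype, between 2.06 and 7.86 CPM in mutant sums and at 1.36 CPM in activated eggs, with a log2 fold of -3.09 (SE 0.84, adjusted p = 0.0198). Egg 45 held 54 of its 70 wildtype counts in batch 2, and without that egg the log2 fold was -1.93 (adjusted p = 0.159) and the call was lost. Ndufa2 and Ndufa5 were then called higher in activated eggs (log2 folds 2.43 and 4.61). The median log2 fold was -0.24 for the members and 0.15 for all genes, and it was -0.57 for complex I and 0.22 for complex IV. Without egg 45 the medians were -0.07 for the members and -0.16 for complex I. Oocyte markers summed to 6420 CPM in activated and 17690 CPM in wildtype eggs of batch 2, and follicle cell markers to 109.4 and 281 CPM, and their part in the result was not tested. The activated group is 1 sum, assumed to vary like the others, and it shares its wildtype eggs with the mutant comparison. Of the wildtype eggs, 9 had more than 35% of their counts in their top 50 genes, and leaving these out ended all 3 higher calls, as did leaving out either M1 sum, while without M1 egg 6 the higher call of Uqcr11 was left.

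**Figure D3:**
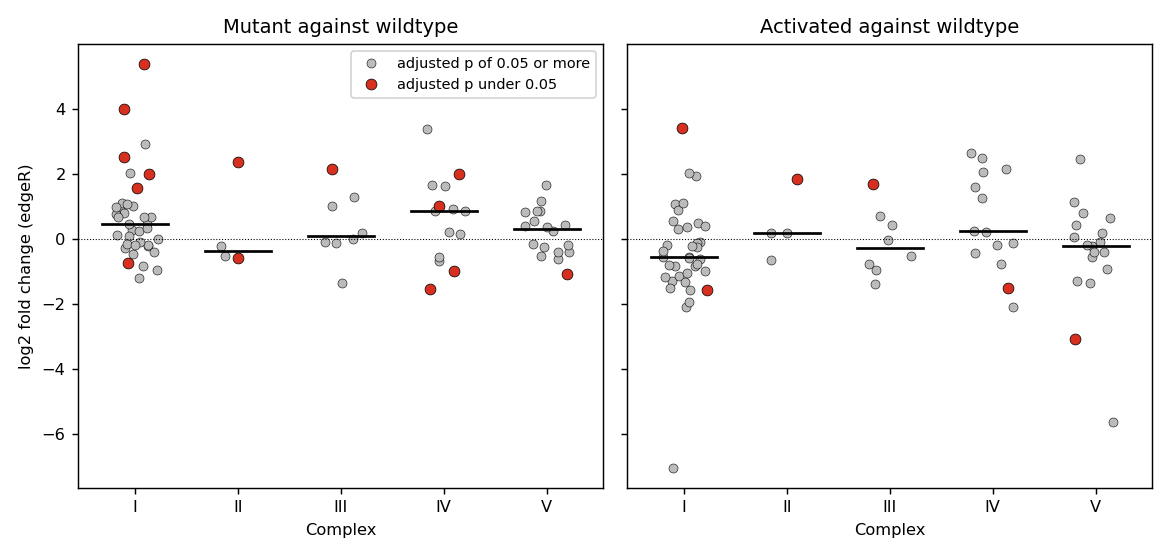
Log2 fold of each of the 81 tested members, by complex, for mutant against wildtype (left) and activated against wildtype eggs (right). Red points were called and bars are medians. Complex I has a median of 0.46 on the left and -0.57 on the right, and both panels use the same wildtype eggs.

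Mutant and activated eggs were compared directly. No member was called by edgeR, where 3.43% of all genes were called higher and 1.42% lower in mutant eggs, and 17 of 81 members (20.99%) had an unadjusted p under 0.05, close to the 17.9% of all genes. DESeq2 called 5 members higher in mutant eggs, a share near the 5.87% of all genes, among them Atp5f1d, Ndufa2, Cox4i1 and Cox6a1. The lowest adjusted p by edgeR was 0.0788, for Atp5f1d (log2 fold 2.46, SE 0.78), followed by Cox6a1 (log2 fold 1.16, SE 0.37, adjusted p = 0.0836). The fitted level was higher in mutant eggs for 58 of 81 members, against 47.6% of all genes, and for 33 of 37 members of complex I, with medians of 0.63 for the members, 0.92 for complex I and -0.05 for all genes. Complex IV had a median of -0.08 and 6 of 14 members higher.

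The mutant fold differed between batches for 1 of 81 members by edgeR, where 0.318% of all genes were called, and for 0 without egg 45.

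Within the mutant eggs no single member was called between M1, M2 and M3, while nearly all members had a lower fitted level in M3 than in M1. For this comparison eggs were added up by group within each of 3 library name prefixes, 1 in batch 1 and 2 plates in batch 2, and the fit held a term for them. No member and no other gene was called by edgeR (0% in both comparisons, 11009 genes tested), and the lowest adjusted p among members was 0.397 for M3 and 0.786 for M2 against M1. The fitted level was below M1 for 77 of 79 members in M3 and for 71 of 79 in M2, against 48.9% and 51.3% of all genes. Median log2 differences from M1 were -0.90 in M3 and -0.57 in M2, against 0.013 and -0.015 for all genes. In M3, 29 of 79 members had an unadjusted p under 0.05 (36.7%), against 7.87% of all genes, and in M2 it was 4 of 79. The exceptions in M3 were Sdha (log2 difference 0.27) and the core subunit Ndufs8 (0.23).

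By complex, the median log2 difference of M3 from M1 was -0.89 for complex I, -0.46 for complex II, -1.14 for complex III, -0.62 for complex IV and -1.27 for complex V. DESeq2 called 6 of 79 members lower in M3, where it called 0.536% of all genes lower. They are named after their values were seen: Ndufb11, Ndufs6, Ndufs7 and Ndufv2 of complex I, Cox4i1 of complex IV and Atp5f1e, the epsilon subunit of ATP synthase. Ndufs7, a core subunit that holds an iron-sulfur cluster, had 18.7 CPM in M1, 8.03 in M2 and 5.13 in M3 of batch 1. On the first plate of batch 2 it was at 10.6, 7.34 and 2.21 CPM, and on the second at 14.3, 10.1 and 3.62 CPM. M3 was thus the lowest and M1 the highest within each of the 3 prefixes, with a log2 difference of M3 from M1 of -2.001 (SE 0.45, unadjusted p = 0.000758, adjusted p = 0.397 by edgeR and 0.00749 by DESeq2). Cox4i1 was at 22.5, 11.99 and 6.77 CPM in batch 1, at 22.1, 13.9 and 8.17 on the first plate and at 22.8, 31.2 and 6.99 on the second, where M2 was the highest.

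The pattern was uneven over the prefixes. On unscaled CPM with 1 added, M3 lay below M1 for 77 of 79 members in batch 1 (median log2 ratio -1.34, all genes -0.13), for 45 on the first plate of batch 2 (-0.15, all genes 0.31) and for 71 on the second (-0.60, all genes -0.04). Egg 6 of M1 had the highest share of counts in the members (0.456%) of the 4 M1 eggs in batch 1. Its oocyte markers summed to 24608 CPM against 5293 to 13015 CPM in the other 3, and its follicle cell markers to 610 CPM against 143 to 277 CPM. Without it M3 still had a lower fitted level for 76 of 78 members (median -0.72) and M2 for 63 of 78 (median -0.37). Oocyte markers moved in the same order. Summed over 15 markers they stood at 13120 CPM in M1, 7352 in M2 and 7286 in M3 of batch 1, and at 18550, 14490 and 11590 CPM in batch 2. Their part in the result was not tested. The 9 mitochondrially encoded subunit genes in the fit had a median log2 difference of 0.33 between M3 and M1, with 2 of 9 lower in M3.

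**Figure D4:**
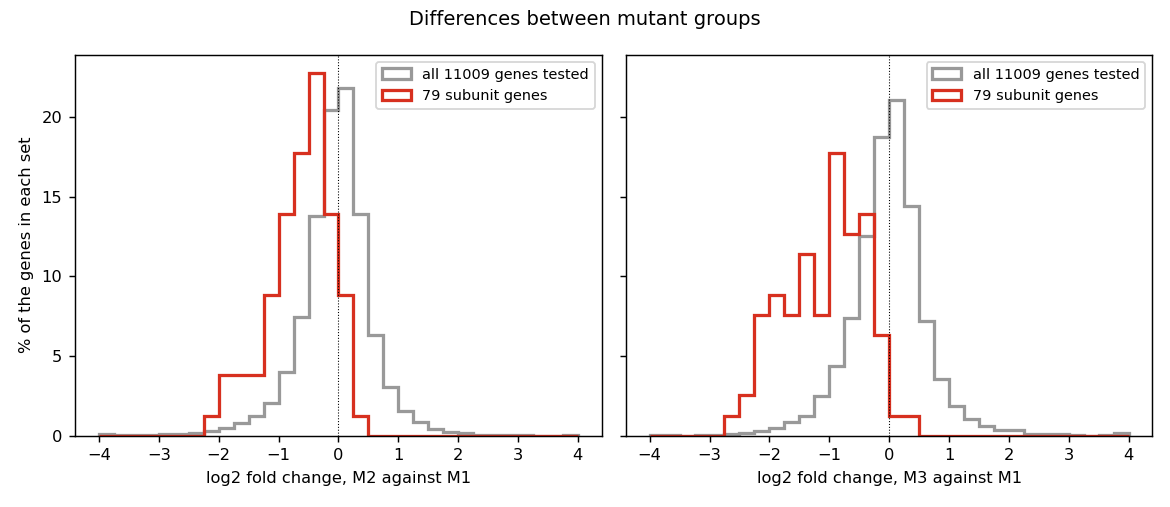
Distribution of fitted log2 differences of M2 (left) and M3 (right) from M1, as the percentage of genes per bin, for 79 subunit genes (red) and all 11009 genes tested (grey). Differences beyond 4 are counted in the outer bins. The subunit genes are centred at -0.57 and -0.90, below all genes, and no single gene passed the adjusted threshold.

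Genes that build or supply the complexes are given from lists of known members. In mutant eggs, 2 of 4 complex II assembly factors were called, both higher: Sdhaf2, which inserts the flavin into Sdha (log2 fold 1.84, SE 0.34, adjusted p = 0.00246), and Sdhaf4 (1.49, adjusted p = 0.0429). Assembly factors of complex I (0 of 18) and complex III (0 of 9) gave no call, complex IV gave Cox14 (1.28, 1 of 26) and complex V gave Tmem242 (-1.46, 1 of 5). Of 5 genes with subunits outside the symbol rule or cytochrome c, Ndufab1, the acyl carrier protein of complex I, was higher (0.96). Coenzyme Q synthesis had 2 of 13 called, Coq9 (2.42, adjusted p = 7.85e-05) and Coq7 (1.31), both higher.

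Calls among fuel and import genes in mutant eggs are read against the 5.36% of all genes called higher. Among 19 genes of the tricarboxylic acid cycle and pyruvate dehydrogenase, 2 were higher, among them the pyruvate dehydrogenase subunit Pdha1 (0.91), and of 23 protein import genes Timm17b (1.83), Timm44 (1.18) and Timm9 (1.497) were. Of 15 nuclear regulators, Nrf1 had a log2 fold of 1.10 (SE 0.25, adjusted p = 0.0105) and Tfam, the packaging factor of mitochondrial DNA, 1.78 (SE 0.49, adjusted p = 0.0288). A link between the Nrf1 level and the promoter letters of the members was not tested. Of 7 carriers and porins, the adenine nucleotide carrier Slc25a5 was higher (0.92) and the phosphate carrier Slc25a3 lower (-0.93). None of the 9 mitochondrially encoded genes tested was called, with a median log2 fold of -0.22.

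Calls in activated eggs are read against the 5.66% of all genes called higher and the 7.33% called lower. They were Ndufaf2 (-2.54) among 18 complex I assembly factors, Sdhaf2 (1.81) among 4 for complex II, and Coq9 (2.27), Coq8b (2.90) and Coq5 (-1.61) among 13 for coenzyme Q. Of 19 genes of the tricarboxylic acid cycle and pyruvate dehydrogenase, 3 were called, among them Dlst (1.36) and Cs (0.86). Timm44 (1.92) was called among 23 import genes and Nrf1 (1.12, adjusted p = 0.0496) among 15 regulators. Of 7 carriers and porins, Slc25a5 (1.39) and Slc25a3 (-2.09) were called. Lists for complexes III, IV and V (9, 26 and 5 genes tested), the 5 genes outside the symbol rule and the 9 mitochondrially encoded genes gave 0 calls. Both comparisons use the same wildtype eggs, and each list's median lay between -0.72 and 1.32, against 0.15 for all genes.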

How the data were processed

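The deposited values were raw counts per gene for 107 Smart-seq2 libraries, 1 per egg. The submitters' processing notes name STAR and HTSeq, with GRCm38 and mm10 as builds. Annotation, tool versions and strand mode were not given in the sources used here. Smart-seq2 does not mark strand, so the 28 members that overlap an antisense gene's exons have uncertain counts. The same holds for the 25 with a near-identical stretch in another transcript.

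Counts were added up within group and batch. Sums were scaled by TMM, filtered with filterByExpr (minimum count 10) and fitted in edgeR 4.0.16 (R 4.3.3) with terms for group and batch. Robust quasi-likelihood tests had 3 residual degrees of freedom, and p-values were adjusted by Benjamini-Hochberg over 13832 genes, with calls under 0.05. The batch difference used 2 degrees of freedom, and the mutant groups 9 sums per group and library name prefix, with the prefix as a term (4). A deposited egg table divides batch 1 further, a division not used here. A standard error is the log2 fold over the root of its F statistic. On simulated counts, 56.0% of genes changed 2-fold and 99.0% changed 4-fold were called between mutant and wildtype. Between activated and wildtype these shares were 13.0% and 83.0%. Changes were placed only in genes with a mean log2 CPM of at least 4, and no batch effect was simulated. Most members lie below that level (median 7.74 CPM), so these shares do not describe them. Positions and lengths are from GENCODE M21, copies from BLAST 2.17.0. DESeq2 1.42.0 and other alternatives are in the closing section.

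The members and gene lists were chosen with earlier results of these data known. Named genes were all members called against wildtype, between groups or batches, the most abundant of each complex, the isoform sets, and up to 3 called genes per list by p. The intervals cover counting error only. No label ties eggs to animals, and 3 mutant eggs under 10000 counts remained in the sums. Some results are not reported here.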

Additional observations from a re-analysis of the deposited data

Results flagged for a closer look

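Within groups of 4 to 10 eggs, 34 sets of values were tested for 1 egg far from the rest, and 3 were marked, where chance marks about 1 in 20. Uqcr11 was at 18.03 CPM in egg 7 of M1 in batch 1, against 43.5 to 47.2 CPM in the other 3 eggs. Ndufa5 was at 0.491 CPM in wildtype egg 4 of batch 1 and at 0 in the other 4. Ndufa7 was at 0.766 CPM in wildtype egg 1 of batch 1, on 2 counts, and at 0 to 0.128 CPM in the other 4.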

How the results depend on the processing

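Alternatives that left out egg 45 of the wildtype or egg 6 of M1, and the counts of members with a lower fitted level, were added after the data were seen. Over 20 results for single members against wildtype and 394 alternatives, 323 kept direction and call, 71 kept direction and lost the call, and 0 turned. Ndufa7 kept its call between mutant and wildtype under each alternative run. Sdha lost its call between mutant and wildtype in 8 of 20.

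Without egg 45, members higher numbered 16 in mutant (7.29% of all genes) and 5 in activated eggs (6.86%), 1 between mutant and activated (3.34%), and the batch difference had 0. Without M1 egg 6, 1 was higher in activated eggs. With no batch or plate term, 1 was higher and 0 lower in mutant, and 0 higher and 0 lower in activated eggs. With no filter, 5 were higher and 7 lower in activated eggs (5.70% and 6.76% of all genes), 6 higher between mutant and activated (4.20%), 3 differed between batches (1.23%) and 8 between M3 and M1 (0.757%). DESeq2 gave 8 lower in activated eggs (9.78% of all genes), 5 higher between mutant and activated (5.87%), 2 between batches (1.16%) and 6 between M3 and M1 (0.545%). Eggs thinned to 60000 counts gave 2 higher between mutant and activated (6.04% of all genes), 0 between batches, and a lower fitted level than M1 for 23 (M2) and 26 (M3) of the 28 members still tested. Without 9 concentrated wildtype eggs, 0 were higher in activated eggs and 2 differed between batches. The cause was not tested, except that fewer genes pass the filter after thinning.

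Leaving out each sum in turn gave 6 to 13 higher and 3 to 5 lower in mutant eggs, 0 to 5 higher and 3 to 8 lower in activated eggs, 0 to 5 higher between mutant and activated, 0 to 5 between batches, and a lower fitted level for 50 to 76 (M2) and 64 to 79 (M3) members. Lower calls in mutant eggs numbered 3 without either wildtype sum. Higher calls in activated eggs numbered 0 without either M1 sum, 1 without the batch 2 sum of wildtype or of M2 and 5 without wildtype of batch 1, where 8 were lower, and 5 were lower without M3 of batch 2. Between mutant and activated, 4 and 5 were higher without wildtype of batch 1 and of batch 2. The batch difference had 0 without M2 of batch 1, 3 and 5 without M1 of batch 1 and of batch 2, and 2 without either M3 sum. The share of all genes called also moved when a sum was left out, so these counts do not describe the members alone. The summed level of the members moved by less than the spread between eggs with the median over eggs and without mitochondrial genes in the total. No paired analysis was possible because the sums per group and batch carry no egg numbers, and the numbers in the labels do not tie eggs together. Wildtype depth in batch 2 (5436993 counts) limits the low members most: Ndufa7 and Ndufa5 had 0 and 8 counts there.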
